A study of Homo sapiens with 12 samples.

Results

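The 9 genes of melanin synthesis and of the melanosome, its organelle, that were followed across all 12 libraries of the series were TYR, TYRP1, DCT, MLANA, GPR143, RAB27A, RAB38, MC1R and TRPM1. Each was taken from the gene locus that lists its symbol, and from the locus with the highest mean over the libraries where several did, which gave 9 of 31585 loci. The series was made from A375, a human melanoma cell line transduced with a retrovirus and selected with hygromycin. Control cells carried the empty vector MSCV-IRES-Hygro, YAPS127A cells human YAP with the S127A mutation, YAPS127A,S94A cells YAP with S127A and S94A, and YAP2SA cells YAP with S127A and S381A. RNA was sequenced from 3 libraries per group, which the records describe as biological replicates plated from each transduced line, so that the p-values measure the spread between cultures of 1 line per group and not between separate transductions. S127A and S381A remove sites at which the LATS kinases inhibit YAP, and S94A removes the binding of YAP to the TEAD transcription factors. One field of the YAP2SA records and the description of the series also list S94A for these cells, but their titles do not, and they were taken as YAP2SA after the titles. The records and the methods of the study also give different times of culture before lysis.

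Melanocytes make melanin in melanosomes, in which tyrosinase (TYR) carries out the first steps from tyrosine and DCT acts on a later intermediate. TYRP1 is a related protein of the same family. The melanosome forms on a fibrillar matrix, receives its enzymes and transporters through small GTPases of the RAB family and the BLOC and AP-3 complexes, and is carried to the cell periphery on actin. The pathway is switched on by alpha-MSH acting at MC1R, and MITF, a basic helix-loop-helix factor, binds the M-box and E-box sequences of many of its genes and is itself activated by SOX10 and PAX3. Melanomas keep these genes to very different degrees, and lines that have lost them are called dedifferentiated.

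The values are log2(FPKM + 1), where FPKM is a fragment count scaled by the length of the transcript and by the mapped fragments of the library, so that levels of different genes can be set side by side. Depth is unknown because the values are not counts. The sum of FPKM ranged from 790865 to 901558 over the libraries, with 20161 to 20656 loci above 0. YAP1 checks the vectors, and 1 library went against its label. YAP1 stood at 34.1 and 33.0 FPKM in Control replicates 1 and 2 and at 172 FPKM in the library labelled Control replicate 3, where the 9 libraries with a YAP mutant ranged from 130 to 187 FPKM. The TYRP1 ratio, RAB38, the MC1R locus, MITF, SOX10 and the counts of pathway genes called are therefore also given without that library. Other fold changes against Control are given with it and can differ in size without it. The groups with a YAP mutant are compared with one another as well.

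By a cutoff of 1 FPKM, most of the 9 genes were not expressed in A375 cells of any group. Of the 9 genes, 6, namely TYR, TYRP1, DCT, MLANA, GPR143 and TRPM1, stayed below 1 FPKM in all 12 libraries, as did 49.7% of all loci. The cutoff does not mean absence, since TYRP1, MLANA and TRPM1 were above 0 in all 12 libraries. RAB27A and RAB38 were expressed, and MC1R was listed on a locus it shares with other genes and could not be read on its own. RAB38 was lower in YAP2SA cells than in each of the other groups. TYRP1 was highest in YAP2SA cells in every library, though still below 1 FPKM. The mRNA measured here is a mean over a culture, in which fewer expressing cells and less RNA per cell cannot be told apart.

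**Figure D1:**
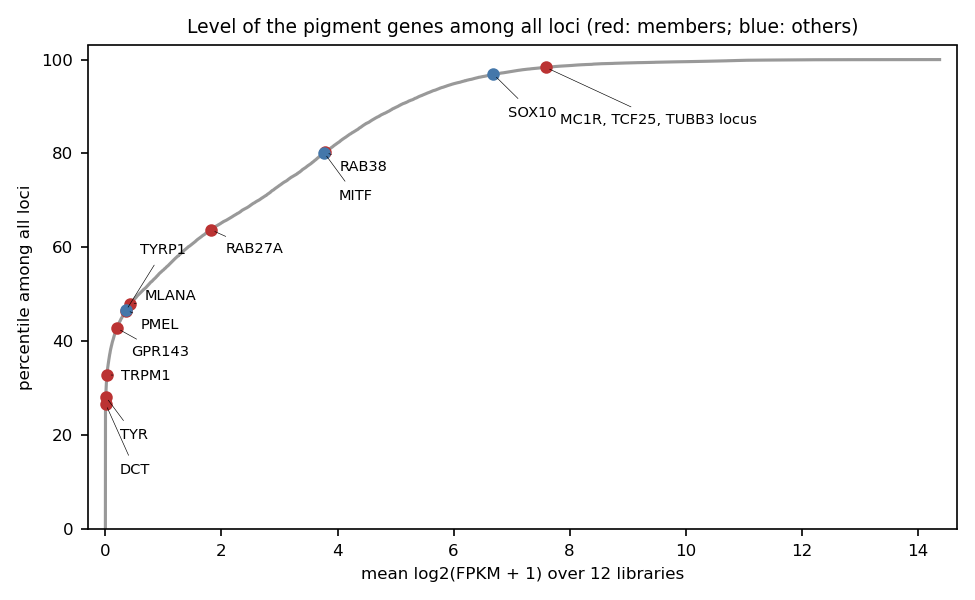
Mean log2(FPKM + 1) over the 12 libraries (x axis) of the 9 pigment and melanosome genes (red points) and of PMEL, MITF and SOX10 (blue points), placed on the curve of all 31585 loci ranked by the same mean (grey line, y axis in percentiles). TYR, DCT, TRPM1, GPR143, TYRP1 and MLANA sit at or below a percentile of 47.8, RAB27A and RAB38 at 63.7 and 80.3, and the locus shared by MC1R, TCF25 and TUBB3 at 98.3.

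The starts of the melanin genes are shown here because several carry the M-box, TCATGTG, the sequence by which MITF is known to bind TYR, TYRP1 and DCT. Promoter windows of 300 bases, 250 before and 50 after a transcription start, were taken from RefSeq (GRCh38.p14) and held 14 windows for 8 of the 9 genes, with none for RAB38. The M-box, read on both strands, stood in 4 of the 14 windows, 1 each of TYR, TYRP1, DCT and GPR143, and in 2.92% of the 35116 windows of all genes. The sequences below run 5′ to 3′ in the direction of transcription, with the M-box in capitals.
TYR, plus strand, chr11:89177625-89177924: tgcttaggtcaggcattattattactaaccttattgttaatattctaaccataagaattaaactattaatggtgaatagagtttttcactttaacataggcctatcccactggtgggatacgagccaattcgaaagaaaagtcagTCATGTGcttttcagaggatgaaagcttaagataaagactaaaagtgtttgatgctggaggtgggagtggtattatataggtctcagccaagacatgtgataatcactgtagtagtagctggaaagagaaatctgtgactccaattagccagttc
TYRP1, plus strand, chr9:12693135-12693434: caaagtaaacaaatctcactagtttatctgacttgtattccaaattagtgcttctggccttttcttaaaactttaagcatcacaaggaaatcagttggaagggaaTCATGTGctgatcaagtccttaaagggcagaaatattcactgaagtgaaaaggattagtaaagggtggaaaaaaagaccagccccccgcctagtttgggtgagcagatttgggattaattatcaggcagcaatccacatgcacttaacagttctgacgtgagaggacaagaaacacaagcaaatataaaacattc
DCT, minus strand, chr13:94479633-94479932: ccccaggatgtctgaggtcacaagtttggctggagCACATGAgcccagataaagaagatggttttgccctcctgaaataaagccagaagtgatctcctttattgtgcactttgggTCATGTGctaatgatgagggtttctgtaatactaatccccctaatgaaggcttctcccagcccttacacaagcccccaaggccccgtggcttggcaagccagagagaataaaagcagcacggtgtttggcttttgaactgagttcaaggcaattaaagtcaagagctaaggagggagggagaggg
GPR143, minus strand, chrX:9765798-9766097: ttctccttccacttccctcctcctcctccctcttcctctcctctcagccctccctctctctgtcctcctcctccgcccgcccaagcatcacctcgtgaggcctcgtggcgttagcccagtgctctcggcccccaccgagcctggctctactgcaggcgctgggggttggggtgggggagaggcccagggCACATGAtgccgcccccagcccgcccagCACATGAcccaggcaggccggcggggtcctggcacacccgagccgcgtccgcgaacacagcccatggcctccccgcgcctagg
The M-box began 105 bases before the start of TYR and 145 bases before that of TYRP1. DCT held 2 copies, which began 215 and 135 bases before its start, and GPR143 held 2, which began 61 and 33 bases before its start. The E-box CACGTG, which does not occur within the M-box, was in 0 of the 14 windows and in 7.26% of all windows. The TEAD sequence GGAATG, also read on both strands, was in 2 of the 14 windows, 1 of DCT other than the one printed and 1 of RAB27A, and in 14.0% of all windows. A match to these letters is a description of the sequence and does not say that a factor bound there.

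Of the melanin enzymes, TYR and DCT were close to absent from the table. TYR, the enzyme that starts melanin synthesis (GRCh37 chromosome 11, 88911043 to 89028927), was listed at 0 in 10 of 12 libraries, at 0.0288 FPKM in Control replicate 1 and at 0.0303 FPKM in YAP2SA replicate 3. DCT, which converts dopachrome (chromosome 13, 95089065 to 95131936), was listed at 0 in 11 of 12 libraries and at 0.0274 FPKM in YAPS127A,S94A replicate 2. A listed 0 was not a general failure of the table, since all 13 housekeeping genes checked had a locus above 0 in every library, the lowest at 11.9 FPKM, although 12 further loci of these genes were also listed at 0 throughout. No group stood apart for either enzyme, and no fold was computed against a group at 0.

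TYRP1, which stabilizes tyrosinase (chromosome 9, 12685439 to 12710285), was the enzyme whose groups separated. It measured 0.0446, 0.152 and 0.0281 FPKM in the 3 Control libraries, and 0.0483, 0.086 and 0.131 FPKM with YAPS127A,S94A. With YAPS127A it measured 0.275, 0.202 and 0.304 FPKM, and with YAP2SA 0.826, 0.66 and 0.949 FPKM. The 3 YAP2SA libraries were therefore above the 3 YAPS127A libraries, and these above all 6 libraries of the other groups, which overlapped each other. Group means were 0.0749 ± 0.0672 FPKM in Control and 0.812 ± 0.145 FPKM in YAP2SA cells (SD, n = 3), a 10.8-fold ratio between low values. That ratio was held down by Control replicate 2, the highest of the Control libraries, and rose to 22.3 without it. It was 8.26 (without the library labelled Control replicate 3) to 11.9 when any 1 of the other libraries of both groups was left out. The log2(FPKM + 1) difference between them was 0.75, and an exact permutation test (two-sided, 3 against 3 libraries) gave p = 0.1, the smallest p that it allows. The other steps of that order gave the same p, with differences of 0.23 for YAPS127A against Control and 0.52 for YAP2SA against YAPS127A, whereas YAPS127A,S94A against Control gave 0.02 (exact permutation p = 0.7).

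TYRP1 fell outside the fit across genes, which took loci with at least 1 FPKM in at least 3 libraries. It was above 0 in all 12 libraries, so it entered the fit without a filter, over the 23437 loci above 0 in at least 1 library, whichever group was high. There the limma test with Benjamini-Hochberg adjustment gave an adjusted p of 1.16e-05 for YAP2SA against Control, beside 31% of those loci past 0.05. The same fit gave an adjusted p of 0.00026 for YAP2SA against YAPS127A and 1.31e-05 for YAP2SA against YAPS127A,S94A. It did not separate YAPS127A from Control (limma adjusted p = 0.0963) or from YAPS127A,S94A (limma adjusted p = 0.0956).

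Of the melanosome proteins, MLANA, a membrane protein of early melanosomes and a melanoma antigen (chromosome 9, 5890889 to 5910606), was detected at a low level in every library. It ranged from 0.214 to 0.433 FPKM in Control, from 0.361 to 0.398 FPKM with YAPS127A,S94A, from 0.326 to 0.58 FPKM with YAPS127A and from 0.205 to 0.301 FPKM with YAP2SA. The mutant groups overlapped Control in each case. The YAP2SA libraries lay below those of the other mutants, by 0.19 against YAPS127A and by 0.14 against YAPS127A,S94A on the log2(FPKM + 1) scale (exact permutation p = 0.1 each), and with the filter lowered to 0.1 FPKM, which MLANA passed in every library, neither difference passed in limma (adjusted p = 0.0894 and 0.194). GPR143, the melanosomal receptor mutated in ocular albinism (chromosome X, 9693386 to 9754337), ranged from 0 to 0.269 FPKM, and all 4 groups overlapped. Its mean was 0.177 ± 0.0251 FPKM in Control and 0.181 ± 0.0927 FPKM in YAP2SA cells (SD, n = 3).

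TRPM1, a cation channel of melanocytes (chromosome 15, 31293268 to 31453363), ranged from 0.000693 to 0.0534 FPKM, of which the lower value is the last decimal that the table keeps. A second locus of TRPM1 was listed at 0 in every library, as was MIR211, the microRNA gene within TRPM1, which was added after its values were seen. The study describes no small RNA library, so the 0 of MIR211 says nothing about the mature microRNA. None of the 4 groups of TRPM1 stood apart from another.

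**Figure D2:**
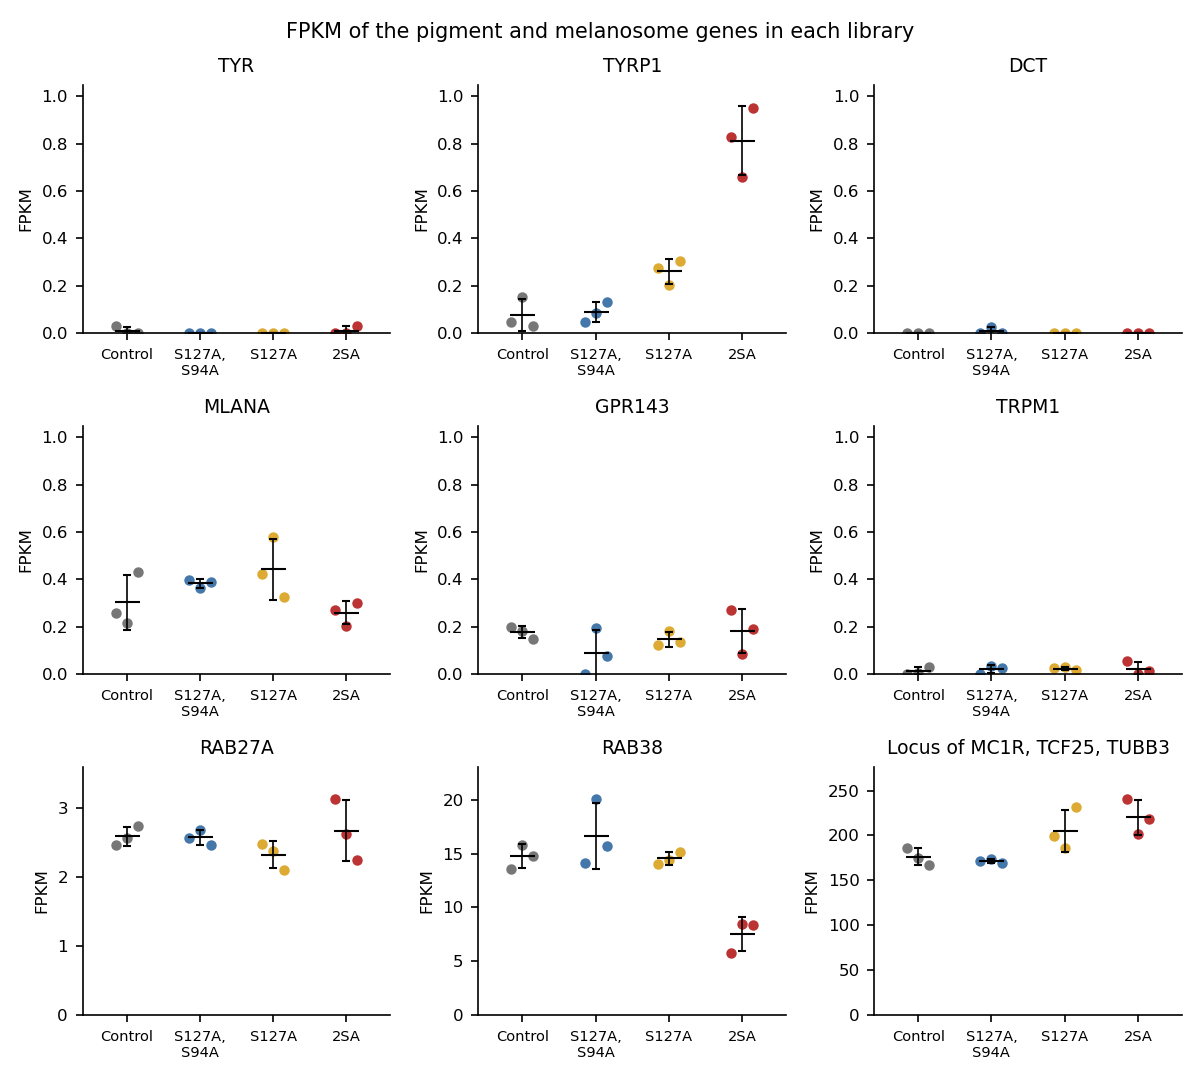
FPKM (y axis, linear, starting at 0) of each of the 9 genes in the 3 libraries of Control, YAPS127A,S94A, YAPS127A and YAP2SA cells (points), with the mean (long bar) and SD (error bars). The panels of the 6 genes below 1 FPKM share a scale, on which TYRP1 alone rises away from the rest in YAP2SA cells, and RAB38 is lower in YAP2SA cells than in the other groups.

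Both traffic genes were expressed. RAB38, the small GTPase that with RAB32 directs tyrosinase and TYRP1 to the melanosome (chromosome 11, 87846419 to 87908611), measured 13.6, 15.8 and 14.8 FPKM in Control. It measured 14.1, 20.1 and 15.7 FPKM with YAPS127A,S94A and 14.0, 14.4 and 15.2 FPKM with YAPS127A. In YAP2SA cells it measured 5.75, 8.44 and 8.4 FPKM, so the 3 YAP2SA libraries lay below all 9 others, while the other 3 groups overlapped.

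The mean of RAB38 was 14.8 ± 1.11 FPKM in Control and 7.53 ± 1.54 FPKM in YAP2SA cells (SD, n = 3). The log2 fold change was -0.90 with a standard error of 0.15 and a limma adjusted p of 0.000543 (Benjamini-Hochberg over 15055 loci), and the ratio of the mean FPKM was 1.96, just under the 2-fold also asked of a call. Without the library labelled Control replicate 3 the log2 fold change was -0.90 (limma adjusted p = 0.00266). Leaving out Control replicate 1, YAP2SA replicate 2 or YAP2SA replicate 3 took the ratio over 2 and made RAB38 a called gene. Against YAPS127A cells RAB38 was 1.93-fold lower in YAP2SA cells (log2 fold change -0.88, limma adjusted p = 0.000952), and against YAPS127A,S94A cells it was 2.21-fold lower (log2 fold change -1.05, limma adjusted p = 0.000169), which passed both thresholds. Without YAPS127A,S94A replicate 2 or YAP2SA replicate 1 that ratio was under 2 and the log2 fold change was -0.92 or -0.89.

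Among the other 3 groups RAB38 showed no difference beyond the spread. YAPS127A differed from Control by -0.02 (95% interval -0.34 to 0.31) and YAPS127A,S94A from Control by 0.15 (95% interval -0.17 to 0.48) on the log2 scale, with limma adjusted p of 0.971 and 1. The order of the means was therefore YAPS127A,S94A at 16.7 ± 3.08, Control at 14.8 ± 1.11, YAPS127A at 14.5 ± 0.578 and YAP2SA at 7.53 ± 1.54 FPKM (SD, n = 3), and YAP2SA alone was separated from its neighbour in that order.

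RAB27A, the GTPase that links mature melanosomes to melanophilin and myosin Va (chromosome 15, 55495164 to 55611311), measured 2.47, 2.56 and 2.75 FPKM in Control and 3.13, 2.62 and 2.25 FPKM in YAP2SA cells. It ranged from 2.47 to 2.68 FPKM with YAPS127A,S94A and from 2.11 to 2.48 FPKM with YAPS127A. The 3 YAP2SA libraries spread over nearly the whole range of the other 9, and no comparison passed. The log2 fold change of YAP2SA against Control was 0.02 (95% interval -0.18 to 0.23, limma adjusted p = 0.865), and those of YAPS127A and YAPS127A,S94A against Control were -0.11 and -0.01 (limma adjusted p = 0.571 and 1).

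MC1R, the receptor for alpha-MSH (chromosome 16, 89978527 to 89987381), could not be separated from its neighbours. Its symbol stood on 1 locus with TCF25 (89939978 to 89980035), TUBB3 (89987800 to 90005169) and 3 unnamed transcripts, so the values are those of the whole locus. That locus measured 186, 175 and 167 FPKM in Control and 171, 173 and 170 FPKM with YAPS127A,S94A. It measured 199, 185 and 231 FPKM with YAPS127A and 241, 201 and 218 FPKM with YAP2SA, so the YAP2SA libraries were above all 6 of Control and YAPS127A,S94A, and YAPS127A overlapped both Control and YAP2SA.

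The locus was 1.25-fold higher in YAP2SA than in Control cells (log2 fold change 0.32, limma adjusted p = 0.0135), which rested on single libraries. The limma adjusted p was 0.0502 without the library labelled Control replicate 3 and 0.0568 without YAP2SA replicate 1. Against YAPS127A,S94A cells the log2 fold change was 0.36 (limma adjusted p = 0.00711), and against YAPS127A cells it was 0.10 (limma adjusted p = 0.408). YAPS127A against Control gave 0.21 (limma adjusted p = 0.206). How much of this signal is MC1R is unknown, and the values say nothing certain about the receptor.

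Counted over the 3 tested genes, 0 passed both thresholds in YAP2SA against Control, beside 15.5% of all 15055 loci (7.59% higher and 7.86% lower). By the adjusted p alone 2 passed, RAB38 lower and the MC1R locus higher, beside 42.3% of all loci, of which 22.9% were higher and 19.5% lower. In YAPS127A against Control 0 of 3 passed both thresholds (2.47% of all loci), and in YAPS127A,S94A against Control 0 of 3 (0.173% of all loci). At an unadjusted p under 0.05 in limma these counts were 2, 1 and 0, beside 7485, 2953 and 661 of the 15055 loci. YAP2SA against YAPS127A gave 0 called (11.1% of all loci), YAPS127A against YAPS127A,S94A gave 0 (3.49%) and YAP2SA against YAPS127A,S94A gave 1, RAB38, which was lower (15.9% of all loci, 8.1% lower). At an unadjusted p under 0.05 in limma they gave 1, 1 and 2, beside 6327, 3761 and 7646 of the 15055 loci. With so few genes tested, none of these shares sets the group apart from the background. Over all 9 genes, the 3 YAP2SA libraries lay wholly above Control for 2, TYRP1 and the MC1R locus, and wholly below for 1, RAB38, beside 31.1% of all loci without overlap. YAPS127A lay wholly above Control for 1, TYRP1 (13.0% of all loci without overlap), and YAPS127A,S94A for 0 (6.17%). These 3 comparisons share the Control libraries. Their shares without overlap are over all 31585 loci, of which 8148 were at 0 in every library and could not separate. Among loci above 0 the shares are larger.

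The genes whose pattern was most like that of RAB38, which of the 3 tested genes varied most between groups, were read as a description. Over the 12 libraries the highest Pearson correlations with RAB38 on the log2 scale were those of CDON at 0.974, ASB9 at 0.968, ABHD6 at 0.964, and ATP1A1OS and AP1S2 at 0.963 each. The 12 points share 4 groups, and the low YAP2SA group carries much of each value, since over the 9 libraries without YAP2SA the correlations were 0.82 for CDON, 0.51 for ASB9, 0.62 for ABHD6, 0.65 for ATP1A1OS and 0.70 for AP1S2. All 5 were lower in YAP2SA than in Control cells, by 0.61 for AP1S2 to 1.45 for ABHD6 on the log2 scale, which their choice by likeness to RAB38 largely fixed in advance.

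The rest of the pigment pathway was read from 47 further genes in 5 lists, of which 37 were tested and 10 stayed below 1 FPKM in every library. In YAP2SA against Control 6 were higher and 4 lower by both thresholds, 10 of 37 beside the 15.5% of all loci, of which MLPH and RAB27B passed the filter through the groups in which they were high, with a median log2 fold change of -0.06 beside 0.01 for all loci. In YAPS127A against Control 1 passed, again MLPH (2.47% of all loci), and in YAPS127A,S94A against Control 0 passed (0.173% of all loci). The latter was also 0 at an unadjusted p under 0.05 in limma, beside 661 of the 15055 loci. Without the library labelled Control replicate 3 the counts by both thresholds were again 10, 1 and 0.

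Of the transcription regulators, MITF and SOX10 moved in opposite directions in YAP2SA cells. MITF (chromosome 3, 69788607 to 70017487) measured 5.01, 9.73 and 11.0 FPKM in Control and 33.9, 30.1 and 41.0 FPKM in YAP2SA cells, a log2 fold change of 1.96 (limma adjusted p = 0.000126). It measured 11.9, 13.9 and 14.6 FPKM with YAPS127A, above all 3 Control libraries but not past the test (log2 fold change 0.65, limma adjusted p = 0.195), and 5.59, 5.05 and 8.9 FPKM with YAPS127A,S94A. SOX10 (chromosome 22, 38366693 to 38383429) measured 234, 274 and 281 FPKM in Control and 4.53, 7.25 and 6.69 FPKM in YAP2SA cells, 42.7-fold lower (log2 fold change -5.22, limma adjusted p = 1.48e-09). Without the library labelled Control replicate 3 the log2 fold changes in YAP2SA cells were 2.15 for MITF and -5.17 for SOX10 (limma adjusted p = 0.000179 and 3.14e-08). The SOX10 libraries of YAPS127A, at 188 to 255 FPKM, and of YAPS127A,S94A, at 250 to 287 FPKM, overlapped Control. LEF1, the Wnt pathway factor, was the other regulator lower by both thresholds, by 2.17 on the log2 scale (limma adjusted p = 1.35e-05). Of the 8 tested regulators, 3 thus passed both, beside 15.5% of all loci. By the adjusted p alone, and under 2-fold, USF1 was lower in YAP2SA cells (log2 fold change -0.38, limma adjusted p = 0.000134) and TFE3, a relative of MITF, higher (1.97-fold, limma adjusted p = 0.000184). These are levels of the whole MITF locus, and its isoforms were not separated.

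Beside the rise of MITF, PMEL, the protein of the melanosome's fibrils, stayed between 0.2 and 0.508 FPKM in all 12 libraries and fell outside the fit. Of the 5 tested melanosome proteins and transporters, GPNMB and SLC24A5 rose and ATP7A fell in YAP2SA cells by both thresholds, beside 15.5% of all loci. GPNMB, a glycoprotein related to PMEL that other cells also make, went from 22.6, 26.3 and 22.9 FPKM in Control to 81.6, 78.1 and 76.3 FPKM (log2 fold change 1.68, limma adjusted p = 3.37e-08). SLC24A5, a cation exchanger of the melanosome, went from 2.62, 5.99 and 6.59 FPKM to 16.7, 18.1 and 22.1 FPKM (log2 fold change 1.78, limma adjusted p = 0.000202). ATP7A, the copper transporter that supplies tyrosinase, fell from a mean of 2.73 to 1.29 FPKM (log2 fold change -0.70, limma adjusted p = 0.000114). The pathway genes below 1 FPKM included OCA2 and SLC45A2, and SLC45A2 was listed at 0 in all 3 YAP2SA libraries.

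Of the 5 tested transport genes, MLPH and RAB27B were called higher in YAP2SA cells, beside 7.59% of all loci. Both were below 1 FPKM in Control and passed the 1 FPKM filter through the groups in which they were high, so that their calls are not independent of that filter. Both were above 0 in all 12 libraries, and their p-values are given from the fit without a filter. MLPH, melanophilin, the effector of RAB27A, measured 0.519, 0.626 and 0.799 FPKM in Control, 2.05 to 2.81 FPKM with YAPS127A and 5.94, 8.25 and 7.31 FPKM with YAP2SA. Its log2 fold change against Control was 1.04 in YAPS127A and 2.30 in YAP2SA cells (limma adjusted p without a filter = 0.00208 and 7.06e-07). RAB27B, the paralog of RAB27A, measured 0.655 to 0.962 FPKM in Control and 2.7 to 2.9 FPKM in YAP2SA cells (log2 fold change 1.07, limma adjusted p without a filter = 6.1e-06). MYO5A, the motor of the same complex, measured 11.6 to 15.8 FPKM in Control and 7.75 to 10.2 FPKM in YAP2SA cells and did not pass.

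The 17 biogenesis genes, subunits of the HPS, BLOC-1 and AP-3 complexes among them, were all tested. In YAP2SA against Control 1 passed both thresholds, beside 15.5% of all loci. The gene that passed was RAB32, the closest relative of RAB38 in melanosome traffic, which went the other way from RAB38. RAB32 measured 12.9, 12.4 and 11.5 FPKM in Control, 12.6 to 13.3 FPKM with YAPS127A,S94A, 16.2 to 17.0 FPKM with YAPS127A and 28.4, 29.0 and 33.1 FPKM with YAP2SA, a log2 fold change of 1.23 in YAP2SA cells (limma adjusted p = 1.05e-07). In YAPS127A cells RAB32 was 0.41 higher than Control (limma adjusted p = 0.00391) and under 2-fold. Of the ligands and receptors, 2 were tested. EDNRB, the endothelin receptor of melanocyte precursors, fell from 5.12, 5.57 and 7.49 FPKM to 2.01, 2.31 and 2.67 FPKM (log2 fold change -1.07, limma adjusted p = 0.000312). A second locus of EDNRB, at 1.18 to 2.74 FPKM over the 12 libraries, is not part of these values. KITLG, chosen after its values were seen, varied from 0.501 to 3.28 FPKM among the Control libraries alone. It ranged from 2.16 to 11.7 FPKM in YAP2SA cells and did not pass against Control (limma adjusted p = 0.264).

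**Figure D3:**
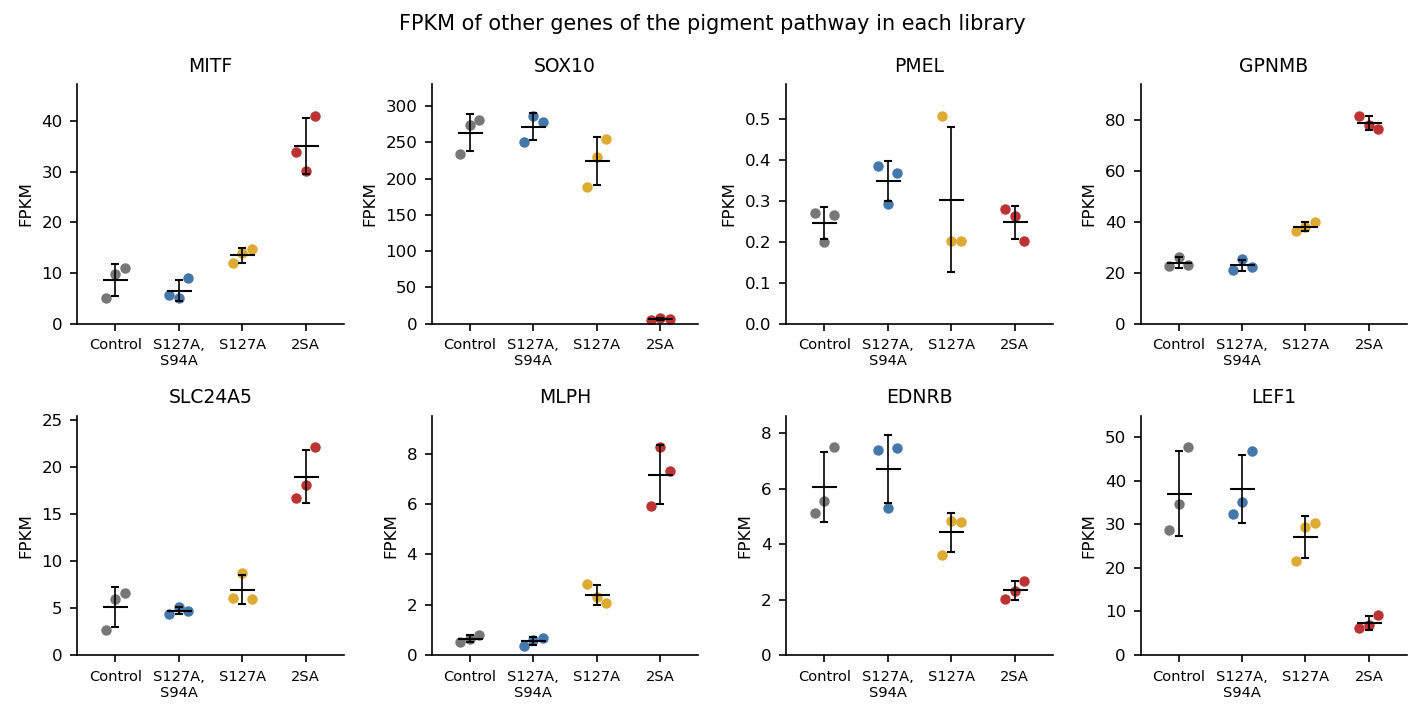
FPKM (y axis, linear, starting at 0) of 8 other genes of the pigment pathway in each of the 12 libraries (points), with the mean (long bar) and SD (error bars) of each group of 3. MITF, GPNMB, SLC24A5 and MLPH are highest in YAP2SA cells, SOX10, EDNRB and LEF1 lowest, and PMEL stays at or below 0.508 FPKM throughout.

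The difference between YAP2SA and the other mutants was tested directly for the same lists. YAP2SA against YAPS127A called 7 of the 37 genes, 5 higher and 2 lower, beside 11.1% of all loci, and YAP2SA against YAPS127A,S94A called 12, 8 higher and 4 lower, beside 15.9%. The 8 included KITLG (log2 fold change 1.96), which ranged from 0.314 to 0.36 FPKM with YAPS127A,S94A. KITLG, MLPH and RAB27B were below 1 FPKM in all 3 YAPS127A,S94A libraries and passed the 1 FPKM filter through other groups. Their calls against YAPS127A,S94A, and that of RAB27B against YAPS127A, are therefore not independent of that filter. YAPS127A against YAPS127A,S94A called 2, MLPH and MITF, beside 3.49%. MITF was 2.60-fold higher in YAP2SA than in YAPS127A cells (limma adjusted p = 0.00292) and 2.07-fold higher in YAPS127A than in YAPS127A,S94A cells (limma adjusted p = 0.0382). The latter was lost when any 1 of 6 libraries was left out, namely the 3 of YAPS127A, YAPS127A,S94A replicates 1 and 2 and YAP2SA replicate 1, with a limma adjusted p of up to 0.119. SOX10 was 36.4-fold lower in YAP2SA than in YAPS127A cells (limma adjusted p = 5.98e-09).

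**Figure D4:**
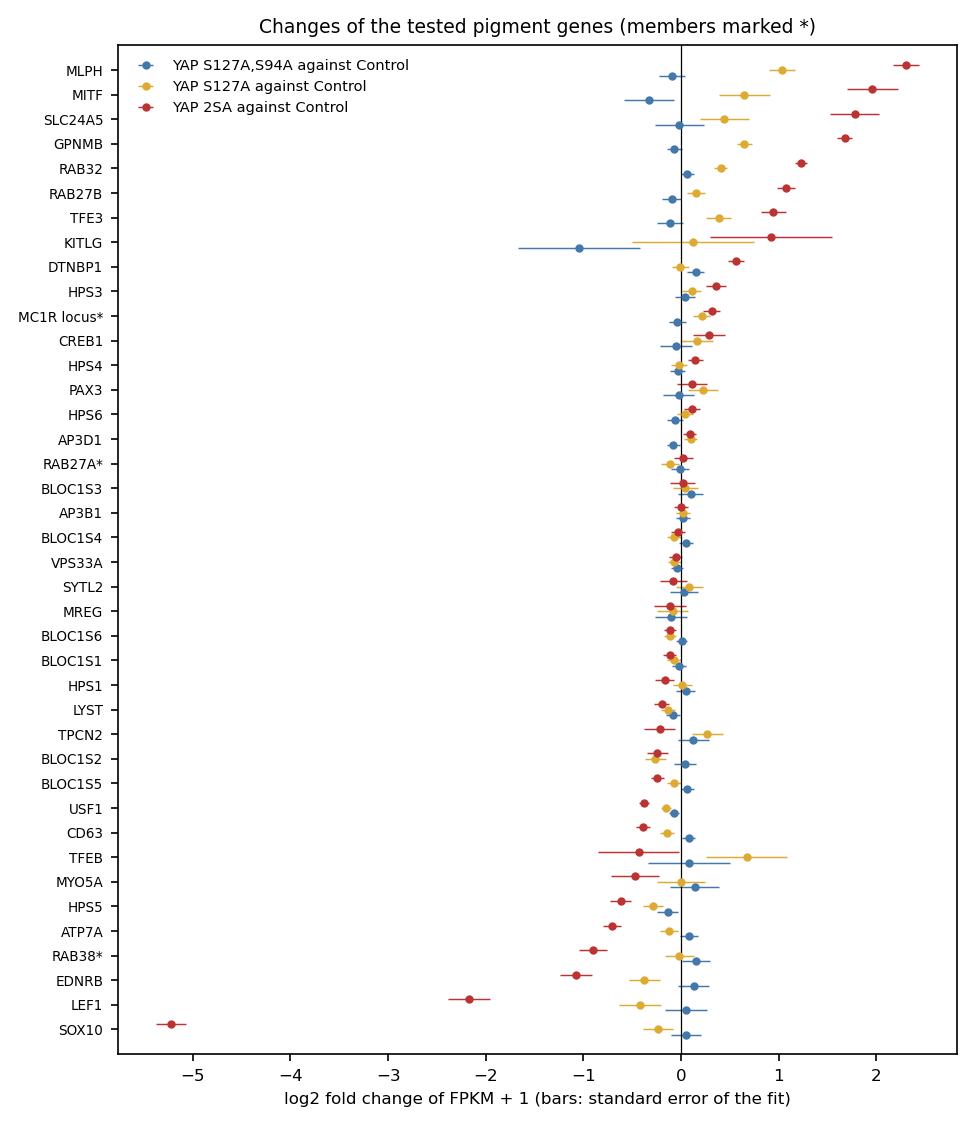
Log2 fold change of FPKM + 1 against Control (x axis, bars are the standard error of the limma fit) of the tested pigment genes, the 3 followed here marked with an asterisk, for YAPS127A,S94A (blue), YAPS127A (yellow) and YAP2SA (red). The YAP2SA points run from -5.22 for SOX10 to 2.30 for MLPH, with RAB38 at -0.90, RAB27A at 0.02 and the MC1R locus at 0.32, and most points lie near 0.

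The labelled cell type was checked on markers outside the 9 genes. S100B and S100A1, which melanoma cells express, summed to 126 to 161 FPKM in Control, 170 to 187 FPKM with YAPS127A,S94A, 68.6 to 94.3 FPKM with YAPS127A and 2.98 to 4.62 FPKM with YAP2SA. In YAP2SA against Control both were called lower, S100A1 34.7-fold and S100B 58.0-fold (limma adjusted p = 1.97e-09 and 1.14e-09), beside 15.5% of all loci. S100B was at 0.605 to 1.03 FPKM in YAP2SA cells and passed the filter through the other groups. In YAPS127A against Control S100A1 was called lower (2.18-fold, limma adjusted p = 0.00104), beside 2.47% of all loci, and S100B was not called (limma adjusted p = 0.069). Among 15 markers of other cell types, the 3 of endothelium and 3 of the 4 of leukocytes (PTPRC, CD3E and ITGAM) were below 1 FPKM in all 12 libraries, and the fourth, CD68, is on a locus with MPDU1. The leukocyte sum, nearly all of it that locus, was 74.5 to 85.5 FPKM in Control and 107 to 116 FPKM in YAP2SA cells. The 4 fibroblast markers summed to 43.1 to 46.0 FPKM in Control, 40.7 to 49.7 FPKM with YAPS127A,S94A, 52.4 to 54.6 FPKM with YAPS127A and 69.4 to 79.0 FPKM with YAP2SA. Nearly all of the Control sum was the locus of PDGFRA, which it shares with FIP1L1 and LNX1 and which stood at 41.2 to 44.3 FPKM in Control and 38.5 to 40.2 FPKM in YAP2SA cells. In YAP2SA cells COL1A1 went from between 0.236 and 0.428 to between 27.9 and 36.3 FPKM. LUM went from between 1.13 and 1.79 to between 1.91 and 2.86 FPKM, under 2-fold (limma adjusted p = 0.0139). DCN, below 1 FPKM in every library, went from between 0.315 and 0.692 to between 0.0996 and 0.258 FPKM. The 4 keratinocyte markers summed to 6.40 to 7.92 FPKM in Control and 2.07 to 2.22 FPKM in YAP2SA cells, with KRT1 at or near 0. That sum hid opposite movements, since KRT14 was at 6.16 to 7.62 FPKM in Control and 0.362 to 0.551 FPKM in YAP2SA cells, and KRT5 at 0 to 0.0777 and 1.37 to 1.67 FPKM. The part of these shifts in the changes of RAB38, TYRP1 and the MC1R locus was not tested.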

How the data were processed

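RNA-seq was carried out on 12 libraries, 3 per group, grouped by the sample titles. Per the submitters' processing notes and the study's methods, the authors used bcl2fastq 2.15.0, aligned reads to hg19 with the UCSC known genes using Bowtie2 2.0.0 (a beta release) and TopHat2 2.0.4, and summarized loci with Cufflinks 2.0.2. The authors deposited log2(FPKM + 1) values with 3 decimals, and the handling of multi-mapping reads is not given in the sources used here. The deposited values are not counts, so depth is unknown, read-based tests were not repeated, and only the spread between libraries gives the precision.

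Of the deposited entries, 3 identical ones were removed, and 2179 of 31585 loci list several symbols. The 15055 loci that reached an FPKM of 1 in 3 or more libraries entered limma 3.58.1 in R 4.3.3 on the deposited log2 values, with 1 mean per group, all 12 libraries in one fit and an intensity trend, and Benjamini-Hochberg adjustment over all loci tested. A call needed both an adjusted p below 0.05 and group mean FPKM that differed over 2-fold. Because 1 is added to the FPKM, log2 fold changes understate the change of low genes. Intervals are 95% intervals from the same fit. Genes outside the fit got an exact permutation test of the log2 values. The fit was tested on simulated data. Plots were made in Python 3.11.15 (matplotlib 3.10.9).

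The 9 genes, the 5 pathway lists and the markers were chosen with earlier results of these data known. Named in the text were the 9 genes, MITF, SOX10 and PMEL, the called pathway genes with the 5 largest rises and 5 largest falls in YAP2SA against Control, the 5 loci with a single name most correlated with the tested member that varied most between groups, the markers and YAP1. RAB27B, MYO5A, OCA2, SLC45A2, KITLG, USF1, TFE3 and MIR211 were named after their values were seen. Gene coordinates are from GENCODE on GRCh37, the assembly also called hg19, and promoter sequences from RefSeq on GRCh38.p14. Alternatives were another pseudocount, lower and no filters, median-ratio and quantile scaling, a fit of only the libraries compared, a replicate block, no intensity trend, no fold threshold, an adjusted p of 0.01, summed loci and each library left out. The ratio of mean FPKM of TYRP1 with each library left out was added after seeing the data.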

Additional observations from a re-analysis of the deposited data

How the results depend on the processing

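The counts of called genes depended mainly on the fold threshold and the filter. Of the 9 genes, YAP2SA against Control called 0, and 1 without a filter or with the 0.1 FPKM filter (TYRP1, which passed that filter through YAP2SA and YAPS127A cells) and 2 without a fold threshold, and leaving out 1 library gave 0 to 1. YAP2SA against YAPS127A called 0, and 1 under each of those 3 settings, with 0 to 1 when 1 library was left out. YAP2SA against YAPS127A,S94A called 1, and 2 under each of the 3, with 0 to 1 when 1 library was left out, 0 being without YAPS127A,S94A replicate 2 or YAP2SA replicate 1, which took RAB38 under 2-fold. Without a fold threshold 42.3%, 32.8% and 43.5% of all loci tested passed in these 3 comparisons. For the 2 fits with lower filters the share of all loci past both thresholds was not computed, so their counts stand without a background. Without a fold threshold the pathway genes called were 17 in YAP2SA against Control, 3 in YAPS127A against Control, 16 in YAP2SA against YAPS127A and 5 in YAPS127A against YAPS127A,S94A, beside 42.3%, 6.31%, 32.8% and 10.7% of all loci tested. Without a filter the second of these was 2 and the last was 1. YAP2SA against Control called 10 of the 37 pathway genes tested, 13 of 47 without a filter and 12 of 43 with the 0.1 FPKM filter. The added ones were TFEC, MYRIP and, without a filter, KIT. The count in YAPS127A against YAPS127A,S94A was also 1 at an adjusted p under 0.01 and 1 to 2 when 1 library was left out, since MITF in that comparison lost its call in 8 of 23 alternatives. The fall of RAB38 in YAP2SA against Control ranged from -0.98 to -0.74 with a limma adjusted p of 0.000152 to 0.00357 over 23 alternatives. Scaling moved the median of all loci by less than 0.1 in each comparison.

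Small uncalled differences changed sign when 1 library was left out. For RAB27A they ranged from -0.0648 to 0.108 in YAP2SA against Control, from -0.032 to 0.023 in YAPS127A,S94A against Control and from -0.0575 to 0.115 in YAP2SA against YAPS127A,S94A. For RAB38 in YAPS127A against Control they ranged from -0.07 to 0.032. In YAPS127A,S94A against Control they ranged from -0.0757 to 0.00233 for the MC1R locus, from -0.136 to 0.000833 for GPNMB, from -0.353 to 0.181 for SLC24A5, from -0.0327 to 0.108 for SOX10 and from -0.107 to 0.248 for LEF1. The replicate numbers did not pair the libraries, since the deviations of libraries with the same number correlated at a median of 0.0116 (range -0.149 to 0.163). With the replicate number as a block, the 9 genes gave the same counts of calls, and the pathway genes gave 10 in YAP2SA against Control, 1 in YAPS127A against Control and 0 in YAPS127A,S94A against Control. Depth is unknown, so for the 6 genes below 1 FPKM a difference smaller than the spread between libraries could not be seen.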

Other observations

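Among the pathway genes below 1 FPKM in every library, several had groups that stood apart at that low level, as TYRP1 did. They were picked after their values were seen and fell outside the 1 FPKM filter. TFEC, a factor of the MITF family, was listed at 0 in the 3 Control libraries and ranged from 0.0105 to 0.0267 FPKM with YAPS127A,S94A, from 0.0526 to 0.0905 FPKM with YAPS127A and from 0.153 to 0.206 FPKM with YAP2SA. MYRIP, an effector of RAB27A, ranged from 0 to 0.13 FPKM in Control and from 0.273 to 0.368 FPKM in YAP2SA cells. KIT, the receptor of KITLG, was listed at 0 in Control and ranged from 0.0454 to 0.137 FPKM in YAP2SA cells, on a locus with 1 other transcript. In the other direction, SLC45A2 ranged from 0.0935 to 0.12 FPKM in Control, was above 0 in all libraries of the YAPS127A and YAPS127A,S94A groups, and was listed at 0 in all 3 YAP2SA libraries. OCA2 ranged from 0.156 to 0.542 FPKM in Control and from 0.0468 to 0.0882 FPKM in YAP2SA cells. EDN3 ranged from 0.0274 to 0.0338 FPKM in Control and was listed at 0 in all 3 YAP2SA libraries. Of all loci, 31.1% had YAP2SA and Control libraries without overlap. That share counts the 8148 loci at 0 in every library and is larger among loci above 0. In the fit without a filter TFEC, MYRIP and KIT passed both thresholds in YAP2SA against Control (limma adjusted p = 9.71e-06, 0.000557 and 0.0146). SLC45A2 did not pass (limma adjusted p = 0.372), and OCA2 and EDN3 did not pass both thresholds. The share of all loci past both thresholds in that fit was not computed. TFEC and KIT, at 0 in Control, entered that fit through the other groups, so their p-values are not independent of it. At such levels a value may rest on few fragments, and the number of fragments is unknown.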
